A study of Homo sapiens with 6 samples.

Results

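Chromosome 13 was described in Hi-C maps of DKO1 and HCT116 cells, from all 20 kb bins of this chromosome that carry a compartment score in both lines and from every domain listed on it. This gave 4794 of the 140474 bins shared in the series, 25 of 1823 DKO1 domains and 103 of 4289 HCT116 domains. Chromosome 13 was chosen on measured values of these maps: of the 22 autosomes it had the highest share of bins whose compartment differed between the lines (26.4%, next chromosome 7 with 23.6%) and the fewest DKO1 domains relative to HCT116 (24.3%, next chromosome 8 with 32.9%). Everything that compares the lines here comes from the contrast that chose the chromosome, and is given as a description without a test.

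DKO1 was made from the human colorectal cancer line HCT116 by disrupting both DNMT1 and DNMT3B, which encode enzymes that keep and set DNA methylation, and HCT116, the unmodified parent, is the line it is set against. Both lines grew in the same untreated culture medium. DKO1 is 1 line, so the knockout and the separate history of that line cannot be told apart, and the copy number and structure of chromosome 13 in each line were not analysed here. Each line had 3 Hi-C libraries, but the labels of all 3 name 1 compartment track and 1 domain list, so each line has 1 pooled value per bin. There is thus no replicate error and no p-value, the depth of the maps is unknown, and neighbouring bins are not independent.

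Hi-C joins and sequences DNA ends that lie close together in the nucleus. The chromatin of a chromosome separates into compartment A, which is gene-rich, open and early replicating, and compartment B, which is gene-poor, compact, late replicating and often bound to the nuclear lamina. The first principal component of the contact map, PC1, follows this separation, and a positive deposited score is called A here and a negative one B. Within compartments, topologically associating domains are regions whose sequences meet each other more often than they meet the neighbouring regions. Chromosome 13 is acrocentric, with ribosomal gene arrays on its short arm, and its long arm is gene-poor and holds several large gene deserts. In hg19, the build of the files, its scored bins ran from 19040001 to 115120000, which is the long arm. The deposited tracks average 0 over every autosome and are scaled to an SD of 1 in DKO1 as in HCT116, so a PC1 is a level relative to the rest of its own chromosome, in units of SD.

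The switched bins of chromosome 13 covered 25.3 Mb and went in both directions. Bins that were B in DKO1 and A in HCT116 (A to B) numbered 662, or 13.8%, beside 8.92% of bins over all 22 autosomes. Bins that were A in DKO1 and B in HCT116 (B to A) numbered 603, or 12.6%, beside 4.40%. The B-to-A share was the highest of the 22 autosomes, and the next was chromosome 6 with 8.49%. The A-to-B share ranked 3 of 22, with chromosome 7 first at 19.9%. Compartment A took 57.0% of the chromosome in DKO1 and 58.3% in HCT116. The balance between the directions depended on where 0 lies: without the windows from 55 to 70 Mb and with the rest rescaled, A to B reached 22.5% and B to A 10.7%.

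The strongly scored bins gave another split. Among the 2076 bins that lay 0.5 or more away from 0 in each line, 132 were B to A and 42 were A to B, together 8.38%. On the other 21 autosomes the median of this share was 0.383%, and the highest was 2.77%, on chromosome 6. The split into 132 and 42 bins depends on where 0 lies. It was not recomputed with 55 to 70 Mb left out and the rest rescaled. Without the 0.5 minimum, that rescaling gave 22.5% A to B and 10.7% B to A. A-to-B bins had a median PC1 of -0.30 in DKO1 and 0.47 in HCT116, and B-to-A bins a median of 0.40 in DKO1 and -0.79 in HCT116. A-to-B bins of chromosome 13 were thus moderately positive in HCT116, while many B-to-A bins had clearly negative scores there.

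**Figure D1:**
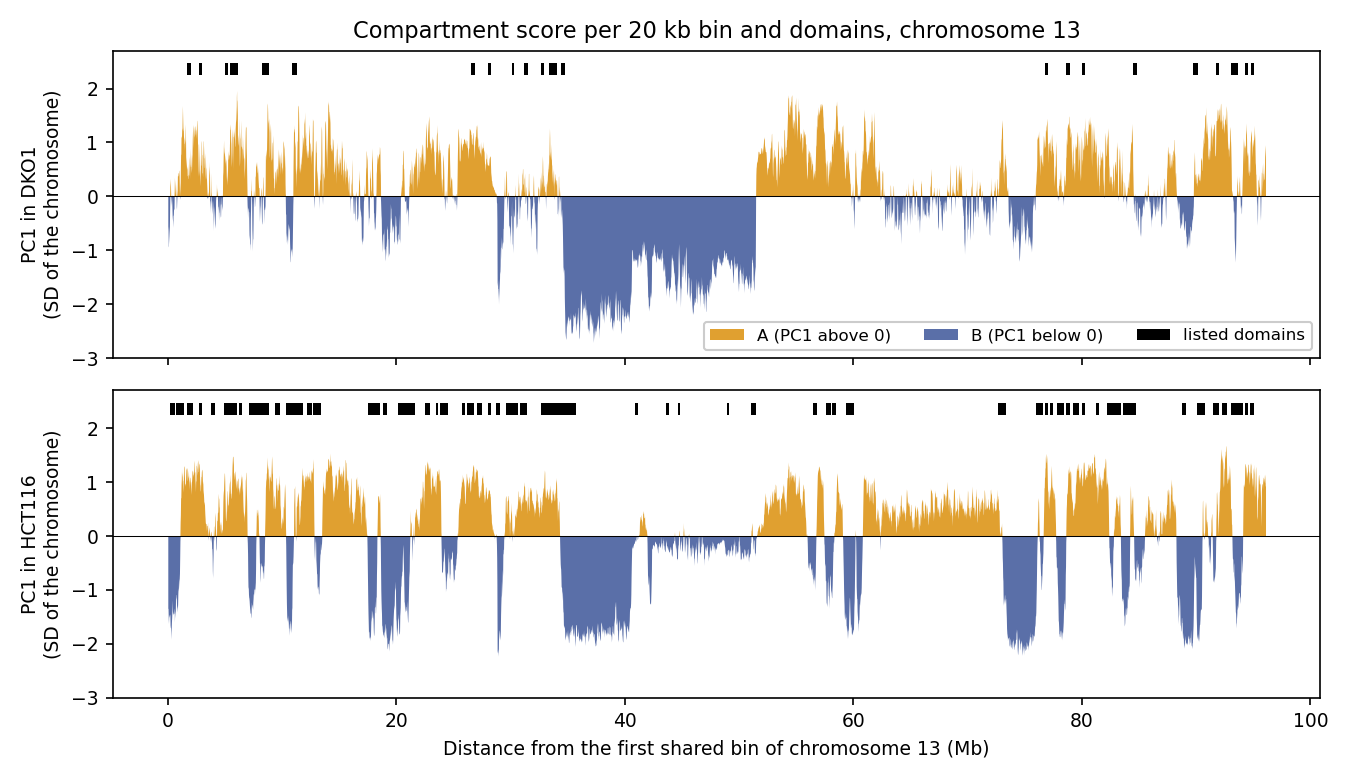
PC1 of every shared 20 kb bin of chromosome 13 (vertical axis, in SD of the chromosome) against distance from the first shared bin, for DKO1 above and HCT116 below; black bars are listed domains. DKO1 has 1 long, deep B block near the middle and 25 domains, with 42 Mb in the middle that hold none. HCT116 is also deep in B over the first part of that block. It has many other B valleys, a pair of flat stretches and 103 domains.

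The tracks of chromosome 13 differed at every scale examined. Pearson's r over its bins was 0.62, the lowest of the 22 autosomes, where the next was chromosome 6 with 0.76 and the median of the others was 0.92. After averaging over 100 kb, 500 kb, 1 Mb and 5 Mb r was 0.63, 0.64, 0.63 and 0.63. At 5 Mb chromosome 7 was at the same level, with 0.63. After a centred 10 Mb running mean was subtracted from each track, r was 0.68 on chromosome 13 and at least 0.81 on each other autosome, and 22.9% of bins differed in sign, against at most 17.5% elsewhere. The running means themselves correlated with r = 0.74, and here chromosomes 7, 6 and 5 were lower, with 0.59, 0.65 and 0.71. A local difference thus remained after the slow part was removed, while the r of the slow part was not the lowest on chromosome 13. In size the slow difference was the largest of the autosomes. The SD of the DKO1 minus HCT116 running mean was 0.50, with chromosome 7 next at 0.44. The running mean had an SD of 0.71 in DKO1, the highest of the 22 autosomes, and of 0.38 in HCT116, with 18 autosomes above it. These correlations are across bins of 1 pair of maps and carry no p-value.

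**Figure D2:**
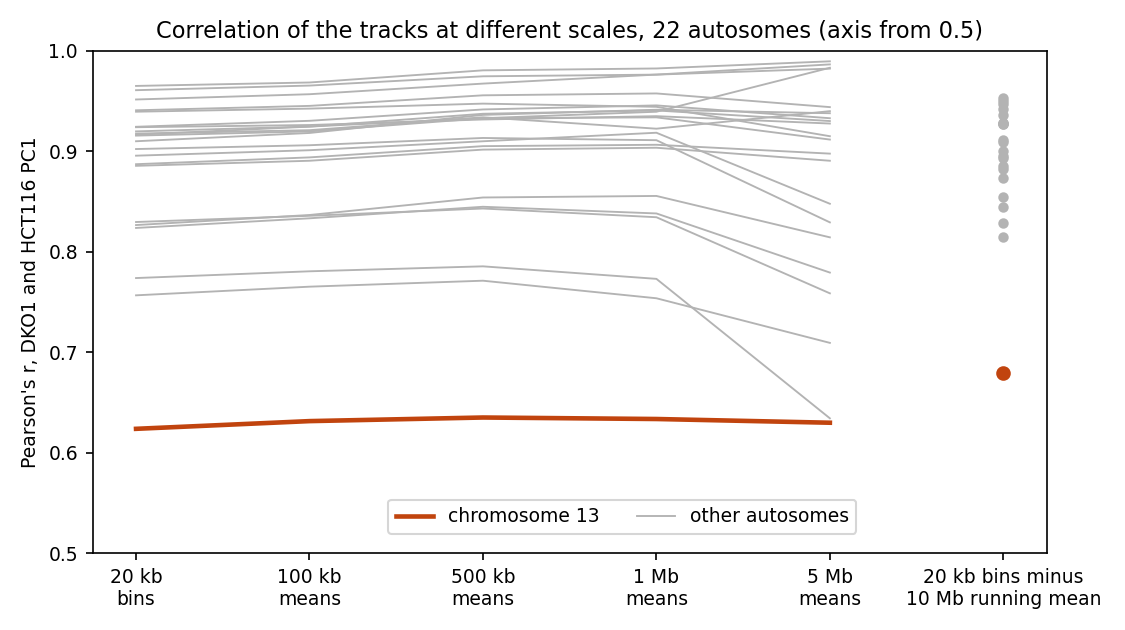
Pearson's r between the DKO1 and HCT116 tracks of each autosome (vertical axis, from 0.5) for bins, for means over longer stretches, and for bins after a 10 Mb running mean was subtracted; chromosome 13 is drawn in colour and the other 21 autosomes in grey. Chromosome 13 stays between 0.62 and 0.64 at all bin sizes and is the lowest line, with chromosome 7 beside it at 5 Mb.

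In fixed windows of 5 Mb, mean PC1 was higher in DKO1 by at least 0.5 in 5 of 21 windows and lower by at least 0.5 in 3. Over all 567 windows of the 22 autosomes these calls were made in 5.82% and 6.70%. Among windows of at least 100 bins, 36.8% on chromosome 13 passed 0.5 in either direction, a lower share than on chromosome 7 with 46.9% and chromosome 6 with 38.2%. A difference of at least 1 was found in 2 windows that were higher in DKO1 and 2 that were lower, beside 0.529% and 0.529% of all windows. Chromosome 13 thus held 4 of the 6 windows of the autosomes that passed 1. Of the higher ones, the window from 15 to 20 Mb rests on only 48 bins next to the centromere, and its difference of 1.28 was 0.96, below 1, with 55 to 70 Mb left out and the rest rescaled. The SD of the difference over windows of at least 100 bins was 0.63, against 0.31 over the windows of the other autosomes.

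**Figure D3:**
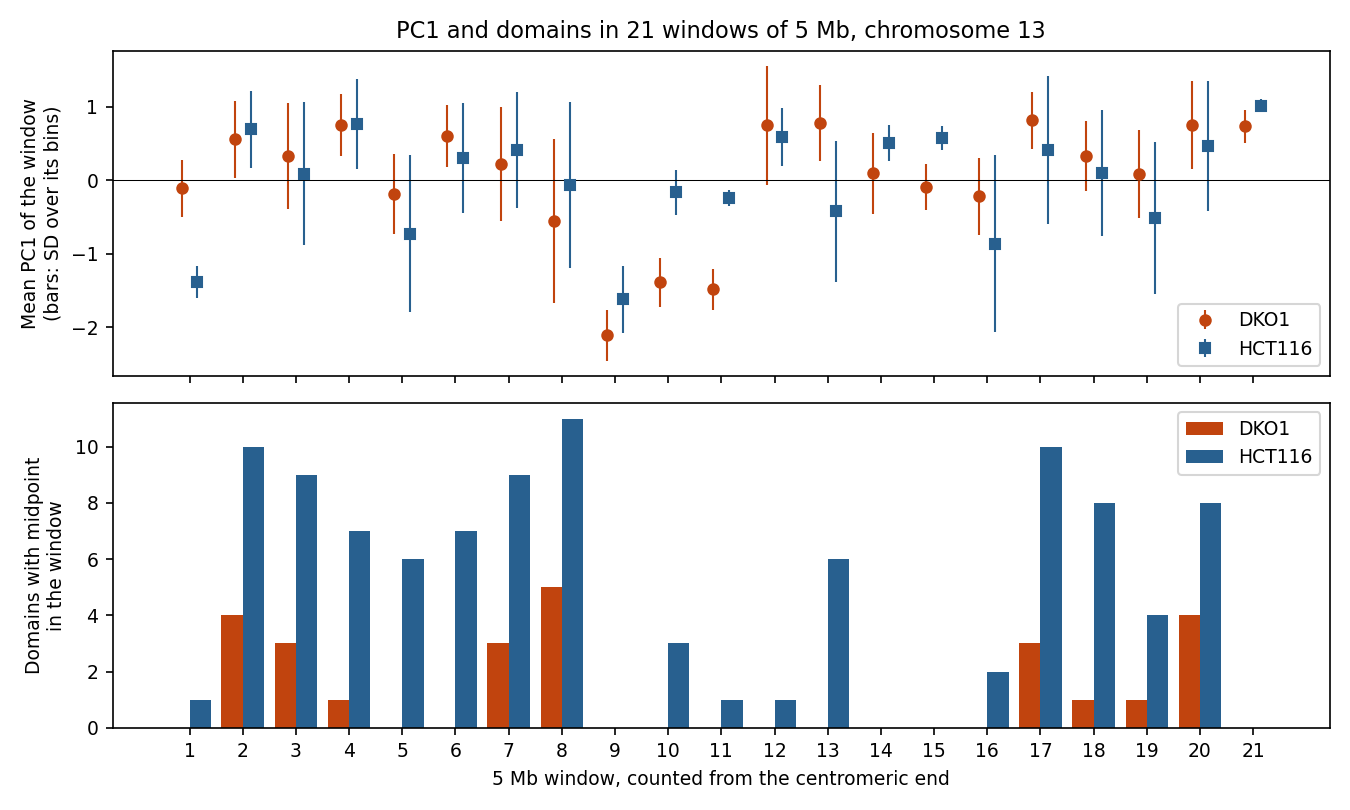
Upper panel, mean PC1 of the 21 windows of 5 Mb in DKO1 (circles) and HCT116 (squares), with bars for the SD over the bins of a window; lower panel, the number of listed domains with their midpoint in the window. Windows 9 to 11, from 55 to 70 Mb, are lowest in DKO1, window 13, from 75 to 80 Mb, is positive in DKO1 and negative in HCT116, and windows 9 to 16 hold no DKO1 domain.

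The first scored bins, from the centromeric end to 20 Mb, had a mean PC1 of -0.11 in DKO1 and -1.39 in HCT116. All 48 were B in HCT116 and 43.8% were A in DKO1. The adjoining windows of the proximal long arm were alike in level. From 20 to 25 Mb the means were 0.56 in DKO1 and 0.69 in HCT116, from 25 to 30 Mb 0.33 and 0.09, and from 30 to 35 Mb 0.75 in DKO1 and 0.76 in HCT116. This part stayed mostly in compartment A in both maps. From 35 to 40 Mb the mean was -0.19 in DKO1 and -0.73 in HCT116, with 40 bins switched each way. The window from 40 to 45 Mb had means of 0.60 in DKO1 and 0.30 in HCT116, and all of its 65 switched bins were B to A. From 45 to 50 Mb and from 50 to 55 Mb the means were 0.22 and -0.55 in DKO1 and 0.41 and -0.07 in HCT116. Within these last windows the tracks ran in parallel, with r of 0.87 and 0.92, and 52 and 56 bins were A to B while 7 and 3 were B to A.

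The windows from 55 to 70 Mb held the pair of windows furthest below HCT116 and dominated the DKO1 track. Their 750 bins, 15.6% of the chromosome, had a mean of -1.66 in DKO1 and -0.68 in HCT116. They carried 46.4% of the summed squared PC1 of the chromosome in DKO1 and 15.9% in HCT116. In both lines the track entered B near 53 Mb, and from 55 to 60 Mb all bins were B in both, with means of -2.11 in DKO1 and -1.62 in HCT116. No window of at least 100 bins on the other autosomes had a mean that low in DKO1, where the lowest was -1.82. DKO1 was already lower there, and the difference widened near 60 Mb. The 1 Mb means differed by -0.50 at 58 to 59 Mb, -0.72 at 59 to 60 Mb and -1.28 at 60 to 61 Mb. From 60 to 65 Mb the means were -1.39 in DKO1 and -0.16 in HCT116, and from 65 to 70 Mb they were -1.48 and -0.24.

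From 60 to 70 Mb, HCT116 lay mostly just below 0, and from 65 to 70 Mb it was nearly flat. Of the 500 bins there, 95.8% lay within 0.5 of 0 in HCT116 and 0% did in DKO1, where 95.4% were below -1. The SD over the bins from 65 to 70 Mb was 0.28 in DKO1 and 0.11 in HCT116. From 60 to 65 Mb it was 0.33 in DKO1 and 0.30 in HCT116, where bins ranged from -1.27 to 0.47. Only 57 bins differed in sign, since HCT116 was already negative over most of this stretch, so the share of switched bins (11.4%) understates a difference in level of -1.23. DKO1 left the block between 70 and 71 Mb. The 1 Mb means at 69 to 70, 70 to 71 and 71 to 72 Mb were -1.53, -0.32 and 0.79 in DKO1, and -0.32, 0.00 and 0.53 in HCT116.

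The window from 75 to 80 Mb was the one furthest above HCT116 among the windows of at least 100 bins, and the next windows lay below it. From 70 to 75 Mb both lines were in A, with means of 0.75 in DKO1 and 0.59 in HCT116. From 75 to 80 Mb the mean was 0.77 in DKO1 and -0.43 in HCT116, with 92.4% of bins in A in DKO1 and 33.2% in HCT116, and 148 bins were B to A while 0 were A to B. The shape within that window was shared all the same, with r = 0.85. From 80 to 85 Mb and from 85 to 90 Mb HCT116 was again flat, but positive. The means were 0.09 and -0.10 in DKO1 and 0.51 and 0.57 in HCT116, and the share of A was 46.8% and 38.2% in DKO1 and 99.2% and 100% in HCT116. These 10 Mb held 284 A-to-B bins, 42.9% of all on the chromosome. In 79.0% of the bins the absolute PC1 in DKO1 was under 0.5, so most of these switches ended close to 0.

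The distal long arm had higher means and shallower valleys in DKO1. From 90 to 95 Mb the mean was -0.22 in DKO1 and -0.86 in HCT116, and from 105 to 110 Mb 0.09 in DKO1 and -0.52 in HCT116. From 95 to 100 Mb, from 100 to 105 Mb and in the 244 bins of the window from 110 Mb on the means were 0.81, 0.33 and 0.75 in DKO1, and 0.41, 0.10 and 0.46 in HCT116. Each of these 5 windows was higher in DKO1. The lowest bin from 90 to 95 Mb was at -1.20 in DKO1 and -2.21 in HCT116, and from 95 to 100 Mb at -0.17 in DKO1 and -1.93 in HCT116. The SD over the bins of a window was lower in DKO1 in 14 of the 19 windows of at least 100 bins, and in 264 of 522 on the other autosomes. The ratio of DKO1 to HCT116 was smallest from 95 to 100 Mb, with SDs of 0.39 and 1.01, and highest from 65 to 70 Mb. Levels and SDs of windows depend on the scaling, because the mean of the whole track is fixed at 0 and its SD at 1. The windows from 55 to 70 Mb lie lower in DKO1 and take a larger share of its squared scores. The SDs of the other windows were not recomputed without them, but the means were. With 55 to 70 Mb left out and the rest rescaled, the difference from 90 to 95 Mb was 0.28 in place of 0.64 and that from 105 to 110 Mb 0.35 in place of 0.61. That from 35 to 40 Mb was 0.18 in place of 0.54, and 2 windows were then higher in DKO1 by at least 0.5 in place of 5. The windows from 100 to 105 Mb and from 25 to 30 Mb then gave 0.06 each, in place of 0.23 and 0.24. Those from 95 to 100 Mb and from 110 to 115 Mb moved little, with 0.40 and 0.26 in place of 0.40 and 0.29. Windows that were lower in DKO1 then lay further below HCT116: from 50 to 55 Mb the difference was then -0.97 in place of -0.48, from 80 to 85 Mb -0.68 in place of -0.41, and from 85 to 90 Mb -0.999 in place of -0.67.

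Bins with an HCT116 PC1 below -0.5 were more often A in DKO1 on chromosome 13 than on the other autosomes. Of its 990 bins with an HCT116 PC1 below -1, 236 were A in DKO1, or 23.8%. On the other 21 autosomes this was so for 541 of 26414 such bins, or 2.05%, and chromosome 6 came nearest, with 11.7%. Of the 304 bins between -1 and -0.5, 63.2% were A in DKO1, against 7.69% elsewhere. Bins above 1 in HCT116 behaved alike, with 0.846% switched on chromosome 13 and 0.819% elsewhere, and so did those from 0 to 0.5, with 45.3% and 45.2%. From 0.5 to 1, 22.6% switched, against 8.83% elsewhere. From -0.5 to 0 the shares were 24.8% and 19.7%, but chromosome 13 reached 65.8% without the windows from 55 to 70 Mb, which hold most of its bins of this class. A above 1 was thus kept about as often as on other autosomes. Both A from 0.5 to 1 and B below -0.5 were kept less often in these maps. These shares depend on where 0 lies, and they were not recomputed with 55 to 70 Mb left out and the rest rescaled. Over the whole chromosome that rescaling gave 22.5% A to B and 10.7% B to A. The classes are set by HCT116 values that also enter the switch, and the bins are neighbours, so the shares are descriptions.

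**Figure D4:**
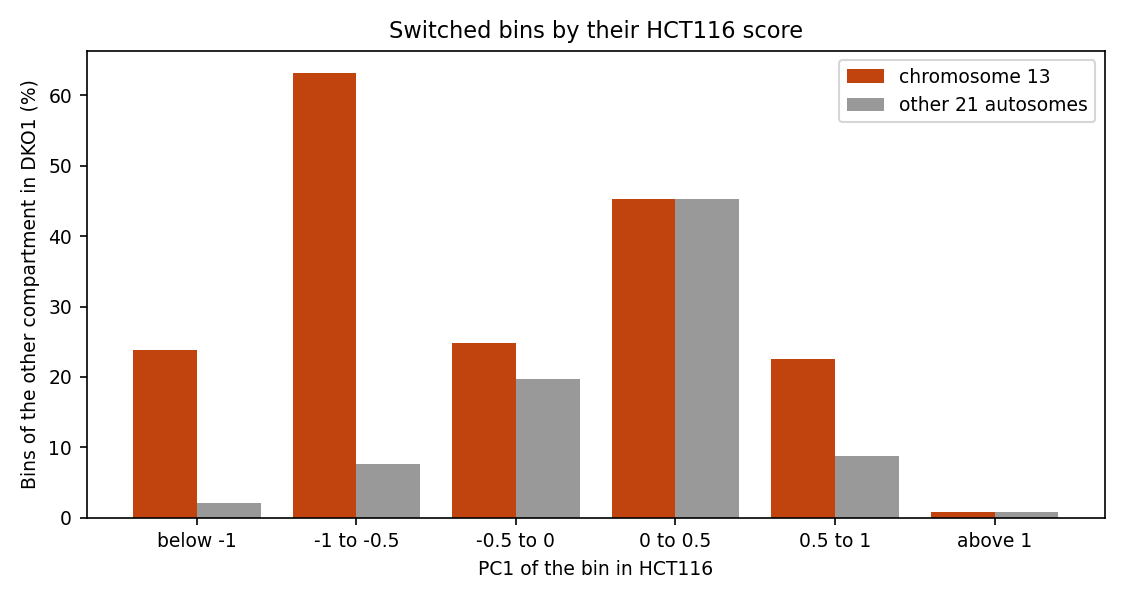
Share of bins that lie in the other compartment in DKO1 (vertical axis, percent) by class of HCT116 PC1, for chromosome 13 and for the other 21 autosomes. The pair of classes below -0.5 reach 23.8% and 63.2% on chromosome 13 against 2.05% and 7.69% elsewhere, and the class above 1 is below 1% in both.

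Most switched bins lay in runs of some length. The A-to-B bins formed 107 runs and the B-to-A bins 90, with a median length of 60 kb in both, and 21 and 20 of them reached 200 kb. The number of B-to-A runs of that length was the highest of the autosomes, the next having 15, but it was 7 after the 10 Mb running mean was subtracted and 10 without the 55 to 70 Mb windows. Runs that touched a bin already in the new compartment in HCT116 held 68.8% of the B-to-A bins and 18.9% of the A-to-B bins. The A-to-B value was the lowest of the autosomes, with chromosome 8 next at 36.5%. A-to-B runs therefore mostly lay inside HCT116 A intervals. The DKO1 track held 282 intervals of 1 sign and the HCT116 track 126, and 11 of the 21 A-to-B runs of at least 200 kb had their midpoint between 80 and 90 Mb, where the DKO1 track runs close to 0. The mean step between neighbouring bins was 0.12 in DKO1 and 0.09 in HCT116, and its part in the count of runs was not tested. After smoothing over 5 bins the intervals numbered 159 in DKO1 and 78 in HCT116.

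The longest A-to-B run reached from 60220001 to 60980000, near where the difference between the lines widens. Its 38 bins had a mean PC1 of -1.06 in DKO1 and 0.25 in HCT116, the largest difference of the A-to-B runs of at least 200 kb at -1.31, and it was -0.37 after the running mean was subtracted. Of the 10 longest A-to-B runs, 6 had their midpoint between 80 and 95 Mb. Among them, the run from 85020001 to 85740000 had means of -0.24 in DKO1 and 0.48 in HCT116, and the run from 90320001 to 91020000 means of -0.35 and 0.59. Subtracting the running mean left a difference of -0.15 in the run near 85 Mb. The remaining ones of the 10 lay near 36 Mb, 51 Mb and 105 Mb. The run from 35840001 to 36200000 had means of -0.51 in DKO1 and 0.61 in HCT116, and that from 51080001 to 51420000 -0.51 and 0.62. None of the 21 A-to-B runs of at least 200 kb was touched by a DKO1 domain, and 3 were touched by an HCT116 domain. DKO1 domains covered only 8.47% of the scored chromosome and HCT116 domains 34.1%. Many of these runs lay between 80 and 90 Mb, where neither line listed a domain.

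The 10 longest B-to-A runs measured 340 to 880 kb and were deeper. In HCT116 their means ran from -1.81 to -0.52, and in DKO1 from 0.23 to 0.70. The run with the largest difference, 2.04, went from 97000001 to 97360000, with means of 0.23 in DKO1 and -1.81 in HCT116, and lay wholly inside a B interval of HCT116. The run from 92040001 to 92580000 had means of 0.54 in DKO1 and -1.25 in HCT116. The run from 110440001 to 110760000, at 320 kb not among the 10 longest, reached the highest level, with 1.11 in DKO1 and -0.62 in HCT116. Of the 20 B-to-A runs of at least 200 kb, 18 were touched by an HCT116 domain and 1 by a DKO1 domain. The lists covered 34.1% of the scored chromosome in HCT116 and 8.47% in DKO1. Touching can be partial, as in the run from 74980001 to 75760000, which extends past the only HCT116 domain it touches, and how often stretches of such length touch a domain in general was not examined.

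DKO1 domains were absent from the middle of chromosome 13. No DKO1 domain was listed from 53800001 to 95800000, which is 42 Mb of sequence and 41.9 Mb of shared bins, or 43.7% of the scored chromosome. The longest such stretch on another autosome measured 28.3 Mb, on chromosome 4. When 1 or 2 domains were allowed to interrupt the stretch, chromosome 13 reached 43.8 and 45.2 Mb and chromosome 2 came close, with 39.96 and 41.5 Mb. In HCT116 17 domains lay within the 42 Mb. The second stretch without DKO1 domains, from 30320001 to 45560000, held 19 HCT116 domains. It takes in the windows from 35 to 40 and from 40 to 45 Mb, where DKO1 listed 0 domains and HCT116 6 and 7. In DKO1 10 of the 19 windows of at least 100 bins had no domain, or 52.6%, against 20.7% on the other autosomes, and in HCT116 3 did. Chromosome 4 came nearest in DKO1, with 42.1%, followed by chromosome 5 with 31.4%.

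**Figure D5:**
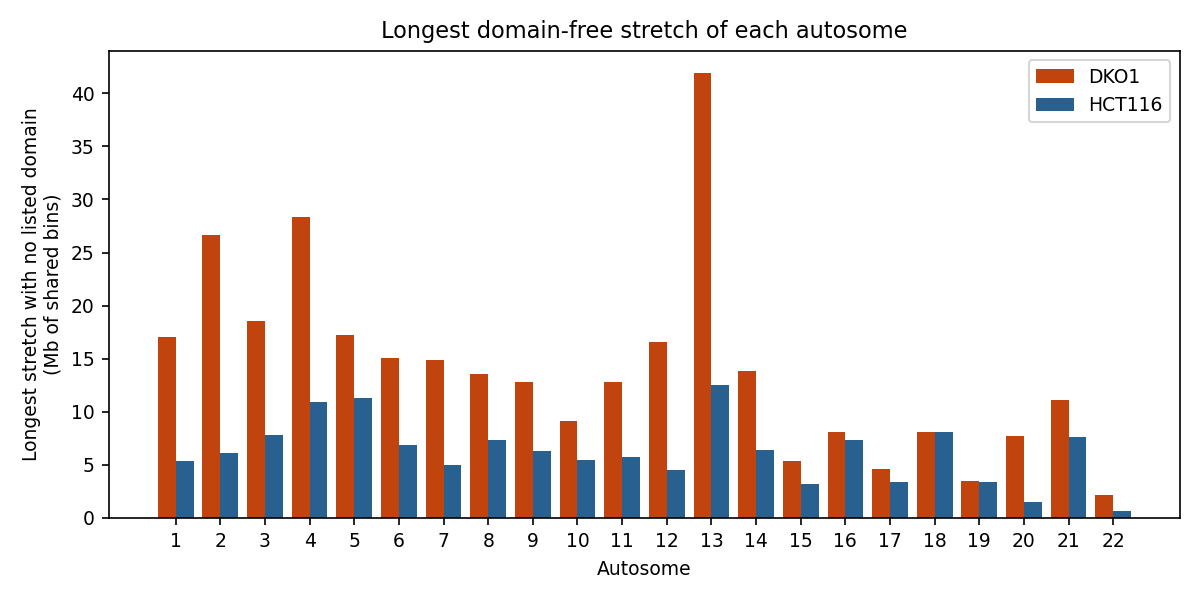
Longest stretch without a listed domain on each autosome (vertical axis, Mb of shared bins) in DKO1 and in HCT116. The DKO1 bar of chromosome 13 reaches 41.9 Mb, and the next, on chromosome 4, 28.3 Mb; in HCT116 chromosome 13 reaches 12.5 Mb and chromosome 5 11.3 Mb.

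HCT116 itself left 12.6 Mb without a domain, from 79120001 to 91720000. In this stretch PC1 averaged 0.01 in DKO1 and 0.47 in HCT116, and 44.2% of its bins were A in DKO1 and 94.4% in HCT116. Compartment A without domains was uncommon. Of the 74 windows of at least 100 bins on the autosomes with at least 90% of bins in A in HCT116, 5 held at most 1 HCT116 domain, and 3 of these were the windows of chromosome 13 from 70 to 75, 80 to 85 and 85 to 90 Mb. The other two lay on chromosomes 5 and 8. With shorter windows counted too, 9 of 82 held at most 1 domain, 4 of them on chromosome 13. In DKO1 the windows with at least 90% of bins in A from 30 to 35, 70 to 75, 75 to 80 and 95 to 100 Mb held 1, 0, 0 and 3 DKO1 domains, while the median of such windows on the other autosomes was 9, both for windows of at least 100 bins. With shorter windows counted too, chromosome 13 adds its last window, of 6 bins and 0 domains, and the median elsewhere was 7. HCT116 had another long domain-free stretch from 54760001 to 59960000, which was entirely B in both lines.

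Per length, domains were sparse on chromosome 13 in both lines, and in HCT116 they did not favour A. There were 26.1 domains per 100 Mb of shared bins in DKO1, the lowest of the autosomes, and 107 in HCT116, where only chromosome 4 had fewer. In compartment A of HCT116 there were 104 domains per 100 Mb, and in B 112. Chromosome 13 was the only 1 of the 22 autosomes on which HCT116 B was the denser. The difference is small and rests on 58 domains in A and 45 in B. It depends on where 0 lies, and the densities were not recomputed under another setting. In DKO1 the densities were 36.6 in A and 12.1 in B of its own track, and 0 autosomes had more in B. Domains covered 8.12 Mb in DKO1 and 32.7 Mb in HCT116, with median lengths of 320 kb and 280 kb. How far the unknown depth of the maps enters these counts was not tested.

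The DKO1 domains fell into 3 clusters. The first 8 lay from 20760001 to 30320000, the next 8 from 45560001 to 53800000, and the last 9 from 95800001 to 114080000. Of the 25, 20 had a positive mean PC1 in DKO1 and 20 in HCT116. The pair from 24480001 to 24840000 and from 24840001 to 25160000, which abut, had means of 1.02 and 1.38 in DKO1 and 1.10 and 1.04 in HCT116. The domain from 110800001 to 111080000 had the highest DKO1 value, 1.52 against 0.50 in HCT116. The longest, from 112120001 to 112720000, was kept at exactly the same limits although it was B in both lines, with -0.15 in DKO1 and -0.91 in HCT116. The domain from 53440001 to 53800000 had the lowest values, -1.04 in DKO1 and -1.33 in HCT116, and closes the list before the domain-free 42 Mb.

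Domains that DKO1 listed were mostly in HCT116 too. At a reciprocal overlap of 80%, 18 of 25 DKO1 domains were matched, or 72.0% (Wilson interval for counting error only, 52.4 to 85.7), beside 84.0% over the 22 autosomes. Within 40 kb, 41 of 47 DKO1 boundaries were found in HCT116, or 87.2% (74.8 to 94.0), beside 92.5%. None of the DKO1 domains had both ends unmatched, and 11 had the same limits in both lists. Of the 7 without a match, 5 shared 1 end exactly. The domain from 24040001 to 24280000 started 80 kb after the nearest HCT116 boundary, and that from 113880001 to 114080000 started 160 kb after one. That from 29960001 to 30320000 started 80 kb before one and that from 53440001 to 53800000 120 kb before one. That from 50200001 to 50560000 kept its start and ended 120 kb after the nearest HCT116 boundary. The domain from 45560001 to 45920000 was 40 kb off at both ends. The seventh, from 108800001 to 109240000, started 320 kb from any HCT116 boundary and was covered by HCT116 domains over 27.3% of its length. It began where the B-to-A run from 108800001 to 109560000 begins, and its mean PC1 was 0.41 in DKO1 and -1.21 in HCT116.

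HCT116 domains of chromosome 13 were matched less often than those of the autosomes as a whole. Of the 103, 18 had a DKO1 partner, or 17.5% (11.3 to 25.9), beside 35.9%, and 42 of 159 HCT116 boundaries were found in DKO1, or 26.4% (20.2 to 33.8), beside 45.2%. Both shares were the lowest of the autosomes, and both depend on the number of DKO1 domains, on which the chromosome was chosen. Of the 58 HCT116 domains in A, 15 were matched, and of the 45 in B, 3 were. These shares, 25.9% in A and 6.67% in B, were the lowest of the 22 autosomes, where the medians of the others were 48.4% and 16.3%, and the share was lower in B than in A on all 22. Of the 85 without a match, 77 were covered by DKO1 domains over less than 20% of their length, so most of them overlapped little or no DKO1 domain.

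HCT116 domains of chromosome 13 that lay in the other compartment in DKO1 were nearly all B to A by the deposited scores. There were 21 with a negative mean PC1 in HCT116 and a positive one in DKO1, and 3 with the reverse. Such domains were not counted on the other autosomes, nor with 55 to 70 Mb left out and the rest rescaled. Of all HCT116 domains of chromosome 13, 73.8% had a positive mean PC1 in DKO1 and 56.3% in HCT116. The medians of the other autosomes were 67.0% and 69.9%. None of the 21 was matched, against 14 of 55 that were A in both lines and 3 of 24 that were B in both. For 0 of 21 the upper Wilson bound was 15.5%, for counting error only. That bound treats the domains as independent, though several of them adjoin each other. The domain from 78360001 to 78720000 had a mean of 0.66 in DKO1 and -1.60 in HCT116. The one from 110480001 to 110800000 had the highest DKO1 value of the 21, 1.13, against -0.56 in HCT116. The domain from 109120001 to 109280000, 1 of the 2 shortest HCT116 domains of the chromosome at 160 kb, had 0.35 in DKO1 and -1.89 in HCT116. The 3 reverse cases adjoin each other from 48880001 to 49680000, with DKO1 means of -0.52, -0.60 and -0.28 and HCT116 means of 0.31, 0.06 and 0.42. The middle one, from 49160001 to 49360000, was the 1 that DKO1 also listed, at the same limits. Of the 21 domains, 20 were covered by DKO1 domains over less than 20% of their length, and the one at 109120001 over 75%, by the DKO1 domain that starts at 108800001.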

How the data were processed

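Hi-C libraries of DKO1 and HCT116 cells, 3 per line, were represented by the files the authors deposited, grouped by the sample titles. The deposited PC1 score, 1 per 20 kb bin, was already scaled per chromosome, and the deposited domain lists hold only starts and ends, on a 40 kb grid. HiC-Pro, HOMER 4.6 and hg19 (GRCh37) come from the submitters' processing notes, without roles; which domain caller and read filters were applied is not stated in these sources. Coordinates are printed 1-based. Bins were joined by chromosome and start, runs were broken at missing bins, a boundary was a distinct domain start or end, and a domain's PC1 was the mean of its bins. A domain belonged to the window of its midpoint. Named regions were every 5 Mb window, per direction the 10 longest runs and, among those of 200 kb or more, the 5 that differed most, every DKO1 domain, and DKO1 domains without a partner; the HCT116 domains and 1 Mb means named were chosen after their values were seen. The chromosome, windows and lists were chosen with earlier results of these data known. Genes are not named, since the only annotation at hand was of another build, and it was not used. Run calling was checked on chromosome 13, where 30 of 30 planted sign changes were recovered over 4794 bins. Python 3.11.15, numpy 2.4.6, pandas 2.3.3 and scipy 1.17.1 were used.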

Additional observations from a re-analysis of the deposited data

How the results depend on the processing

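No paired analysis was possible because the 3 libraries of each line were represented by 1 track and 1 list, and for the same reason no replicate was left out. Leaving out 55 to 70 Mb and rescaling, the intervals and runs under other settings, the running mean for the share of A, and interrupted stretches were chosen after seeing the data. In the order share of A in DKO1, share of A in HCT116, A to B, B to A, median subtraction gave 50%, 50%, 13.7% and 13.7%, absolute PC1 of at least 0.5 in both lines 68.6%, 64.3%, 2.02% and 6.36%, and leaving out 55 to 70 Mb 52.8%, 64.6%, 22.5% and 10.7%. Subtracting a 10 Mb running mean gave a DKO1 A share of 49.8%, A to B of 15.6%, B to A of 7.36% and r of 0.68, a 20 Mb mean gave 19.6% and 8.80%, and only runs of at least 200 kb gave 8.28% and 8.43%. B to A therefore exceeded A to B with the PC1 minimum, and A to B exceeded B to A after either running mean and without 55 to 70 Mb. Under the main calls and the 5 settings run on all autosomes (median, minimum, smoothing over 5 bins, running means of 10 Mb and 20 Mb) chromosome 13 kept the highest switched share, between 8.38% and 28.5%, and the lowest r. Windows higher in DKO1 by 0.5 or more numbered 3 with windows of 10 Mb and 2 without 55 to 70 Mb. Median subtraction adds the same amount to every window, as at 80 to 85 Mb (-0.26 in place of -0.41). Intervals were 159 in DKO1 and 78 in HCT116 after smoothing, and B-to-A runs of at least 200 kb 7 after the 10 Mb mean and 10 without 55 to 70 Mb. All 23 named runs kept their direction under median subtraction, smoothing and the 10 Mb mean, and the last moved 9 of them by over 1.5 times. DKO1 boundaries found were 66.0% at tolerance 0 and 95.7% at 120 kb, HCT116 boundaries 19.5% at tolerance 0, and matched DKO1 domains 96% at 50% overlap and 48% at 90%. Unknown depth limits the domain counts. Leaving out domains over 2 Mb could change nothing, as none is that long, and merging overlapping entries gave 25 domains in DKO1, where none overlap, and 100 in HCT116.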

Other observations

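The unevenness of the DKO1 track on chromosome 13 had a near equal on another autosome. The 3 adjoining windows with most of the summed squared PC1 held 2.97 times their share of bins on chromosome 13 in DKO1, and 1.64 times in HCT116. Chromosome 5 reached 3.17 times in DKO1 and 2.92 times in HCT116, so that there the unevenness was present in both lines. In HCT116, chromosome 13 ranked 11 of 22 on this measure, and its top 15 Mb began at 45 Mb in place of 55 Mb.

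Window means and domain numbers of chromosome 13 were loosely related in both lines, as on several other autosomes in HCT116. Over its 19 windows of at least 100 bins, Pearson's r between mean PC1 and the number of domains was 0.29 in DKO1 and 0.33 in HCT116, against 0.61 and 0.48 over 522 windows of the others. This was the lowest of the 22 autosomes in DKO1, with chromosome 5 next at 0.36, but in HCT116 chromosomes 8, 22, 5, 15 and 7 were lower, with 0.10, 0.17, 0.18, 0.23 and 0.28. Windows of 1 chromosome share their scaling and their map, and no p-value is given.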
